A study of Mus musculus with 6 samples.

Results

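The E2F transcription factors, their dimer partner and the retinoblastoma proteins were described in mouse uteri with and without deletion of Arid1a, at 3.5 dpc (days post coitum). The family was taken as 10 genes, E2f1, E2f2, E2f3, E2f6, E2f7, E2f8, Tfdp1, Rb1, Rbl1 and Rbl2, and its members were all probe sets that the platform annotation assigns to 1 of these genes alone. The rule gave 21 of the 45037 probe sets on the array, which stand for 10 of 18193 named genes. Affymetrix mouse arrays measured RNA of whole uteri, 3 per genotype. Arid1a d/d mice carry Pgr cre/+ together with Arid1a f/f, so that the floxed part of the gene is lost where the Pgr promoter drives Cre. Cells of a lineage in which Cre was never active keep it. Arid1a f/f mice carry the floxed alleles with an intact Pgr locus. The genotypes thus differ at both genes, and no arrays of mice with Cre alone were analysed here. Females of both genotypes were mated with C57BL/6 males, and the sources used here give no age for the mice of the arrays. The labels do not say whether the 3 samples of a genotype came from separate mice, so the p-values cover only the spread among samples.

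E2F proteins bind DNA as dimers with a DP protein such as TFDP1 and control genes needed for DNA replication and cell division. E2F1, E2F2 and E2F3 activate these genes when a cell enters S phase. The pocket proteins RB1, RBL1 (p107) and RBL2 (p130) bind E2F factors and silence the same genes in resting cells, until cyclin dependent kinases phosphorylate them and the E2F is set free. E2F6 acts as a repressor through Polycomb proteins without a pocket protein, and E2F7 and E2F8 repress as dimers of their own without a DP partner. Several members, among them E2f1, E2f7, E2f8 and Rbl1, are themselves known E2F targets that rise as cells divide. In the mouse uterus, epithelial cells normally stop dividing before implantation while stromal cells begin to divide.

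Promoter sequences of the family were searched for a few exact words that E2F factors are known to bind. RefSeq promoter windows, 250 bases before to 50 bases after an annotated start site in assembly GRCm38.p6, were found for 9 of the 10 members in 12 windows, and Rb1 had none. The E2F words searched on both strands were TTTCCCGC, TTTCGCGC, TTTGCCGC and TTTGGCGC. Apart from these words without their leading T, no other variant was searched, so a window without them may still hold an E2F site. At least 1 of them was in the windows of 5 of the 9 members, against 2.26% of 32851 windows and 2.60% of 27025 genes in the whole table. The stretches of 5 members whose windows hold an E2F word are shown 5′ to 3′ on the strand of the gene, with the word in capitals. E2f6, which is also called below, is not shown because its window holds no such word. The stretch of E2f2, which has a word of 8 bases, is not shown either. The capitals of Tfdp1, E2f7 and E2f3 are the reverse complement of a word, which lies on the opposite strand. Tfdp1 has windows of different start sites, and its word lies at -43 from the start used here and at -96 from the other. E2f8 is shown with a word of 7 bases, TTGGCGC, because its window holds no word of 8.
Tfdp1, chr8:13338688-13338735, plus strand, 43 bases before the start: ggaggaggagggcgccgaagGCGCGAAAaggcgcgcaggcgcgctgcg
Rbl1, chr2:157204535-157204572, minus strand, 18 bases before the start: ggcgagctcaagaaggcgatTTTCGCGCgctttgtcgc
E2f7, chr10:110745221-110745268, plus strand, 198 bases before the start: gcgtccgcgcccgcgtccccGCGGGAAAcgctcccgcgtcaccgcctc
E2f3, chr13:29986064-29986094, minus strand, 11 bases before the start: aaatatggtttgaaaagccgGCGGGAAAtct
E2f8, chr7:48881681-48881727, minus strand, 111 bases before the start: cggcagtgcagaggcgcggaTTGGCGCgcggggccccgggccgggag

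The values are RMA intensities on a linear scale as the authors deposited them, with a median over all values of 3.12. The table has no detection calls. A probe set whose mean lies under that median in both genotypes is called dim here, and 6 of the 21 were dim. Levels were not compared between probe sets, because each has its own affinity. Each gene was represented by its brightest probe set, and the others are given after it. The log2 values of the genotypes were compared by limma, p-values were adjusted by Benjamini-Hochberg over all 45037 probe sets, and a gene was called at an adjusted p under 0.05. The deleted gene did not overlap between genotypes, with Arid1a at 83.6, 86.8 and 104 in Arid1a f/f and at 51.9, 51.9 and 58.1 in Arid1a d/d (log2 fold change -0.76, standard error 0.12, limma adjusted p = 0.0120). The position of its probes in the gene, inside or outside the floxed part, was not given. For the check of the tissue label, none of the 13 measured epithelial, 12 stromal and 12 smooth muscle markers was dim. The same held for the 10 uterine identity genes, such as Pgr, Esr1 and Hoxa10. The share of dim genes over all genes was not counted.

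In Arid1a d/d uteri, Tfdp1, E2f8, E2f6 and Rbl1 rose. These are the dimer partner, a pair of E2F repressors and a pocket protein, and their rises were between 1.44-fold and 2.89-fold. None of the activators E2f1, E2f2 and E2f3 passed the test, although all 3 had positive log2 fold changes, and no member fell. The 4 calls among 10 member genes stood against 3.37% of all genes called higher and 4.06% called lower. By probe set, 4 of 21 were called higher and 0 lower, against 2.42% and 2.35% of all probe sets. At an unadjusted p under 0.05, limma gave 8 probe sets higher and 1 lower, against 9.27% and 9.23% of all probe sets, and the methods' t-test gave 7 and 0, against 7.52% and 7.36%. By gene at that threshold, each of these tests gave 6 of 10 higher and 0 lower, where limma gave 11.4% of all genes higher and 13.5% lower, and the methods' t-test 9.51% and 10.6%. The median log2 fold change was 0.51 over the 10 genes and -0.02 over all genes.

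**Figure D1:**
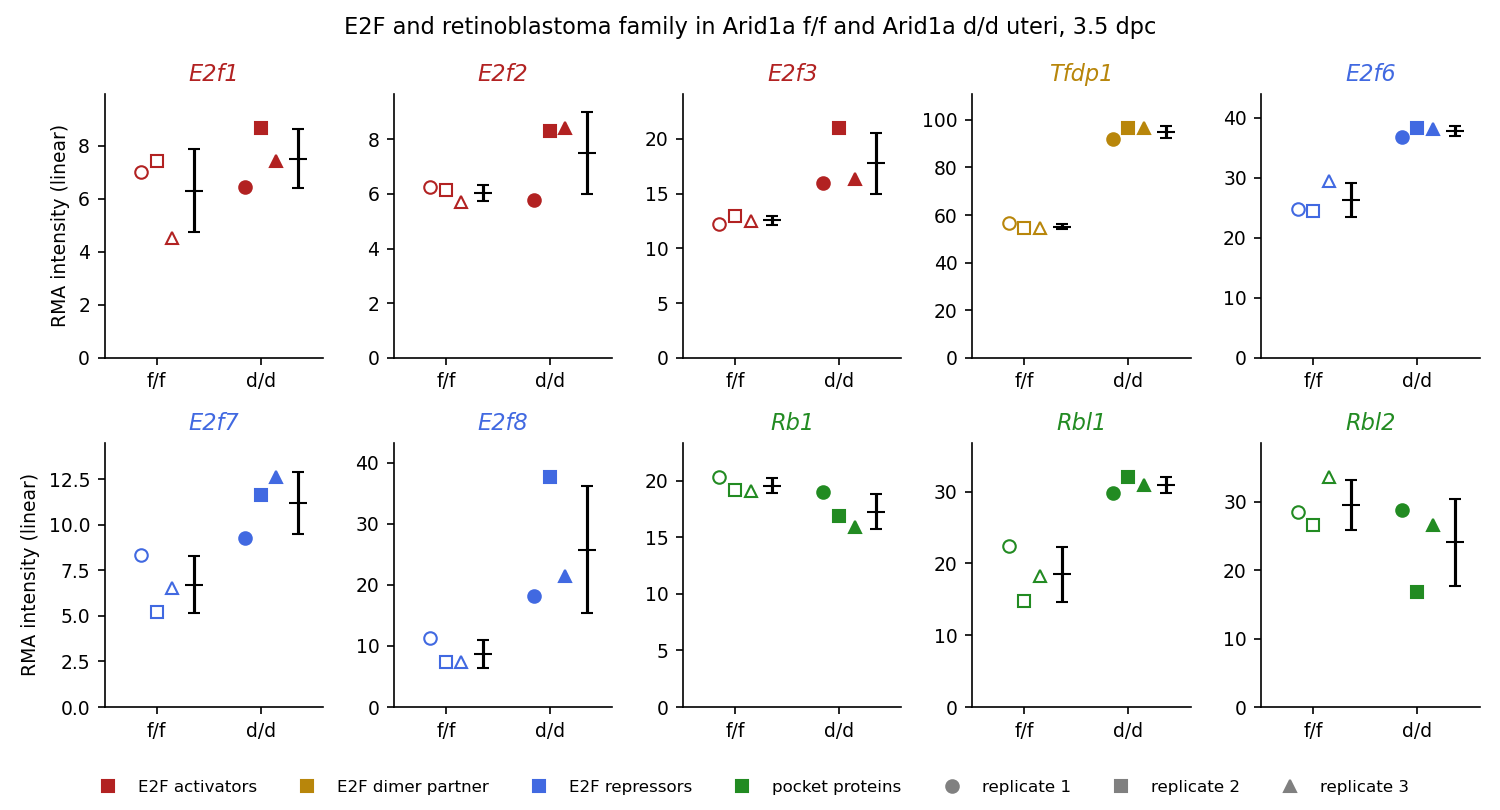
Linear RMA intensity of the brightest probe set of each member on each array, with open symbols for Arid1a f/f and filled symbols for Arid1a d/d. The black bars give mean ± SD over 3 arrays, and colours give the role. Tfdp1, E2f6, E2f8 and Rbl1 passed the test, and for each of them every Arid1a d/d array lies above every Arid1a f/f array.

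Among the activators, E2f3 had the largest difference of the brightest probe sets. E2f3 had intensities of 12.2, 13.0 and 12.5 in Arid1a f/f and of 16.0, 21.0 and 16.3 in Arid1a d/d. The groups did not overlap, and replicate 2 of Arid1a d/d was the highest. The log2 fold change was 0.49 (standard error 0.12, 95% interval 0.21 to 0.77), which missed the threshold (limma, adjusted p = 0.0629), and it was 0.36 to 0.56 when each array was left out. A second E2f3 probe set, close to the median intensity, had a log2 fold change of 0.25 (limma, adjusted p = 0.435).

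E2f1, the first E2F to be described and an inducer of S phase genes, gave unequal values by probe set. The brightest had intensities of 6.99, 7.40 and 4.50 in Arid1a f/f and of 6.45, 8.66 and 7.40 in Arid1a d/d, with overlap and a log2 fold change of 0.28 (95% interval -0.17 to 0.72, limma adjusted p = 0.532). The second had intensities of 7.16, 4.52 and 4.55 in Arid1a f/f and of 6.91, 8.75 and 9.54 in Arid1a d/d. Here replicate 1 of Arid1a f/f lay among the Arid1a d/d arrays, and the log2 fold change was 0.66 (95% interval 0.21 to 1.10, limma adjusted p = 0.105). Without that array it was 0.88 and passed the test (limma, adjusted p = 0.0373). The third probe set was dim, with a log2 fold change of 0.09.

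E2f2 is the third activator. Its brightest probe set had intensities of 6.25, 6.13 and 5.72 in Arid1a f/f and of 5.76, 8.29 and 8.41 in Arid1a d/d. Replicate 1 of Arid1a d/d lay within the Arid1a f/f range while the others lay above it, and the log2 fold change was 0.29 (95% interval -0.05 to 0.64, limma adjusted p = 0.365). A dim second probe set did not overlap between genotypes, at 1.87 to 2.43 in Arid1a f/f and 2.65 to 3.13 in Arid1a d/d, with a log2 fold change of 0.46 (limma, adjusted p = 0.0834).

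Tfdp1, the partner that E2F1 to E2F6 need to bind DNA, was the most sharply separated member. Its 1 probe set had intensities of 56.6, 54.4 and 54.6 in Arid1a f/f and of 91.9, 96.4 and 96.6 in Arid1a d/d. The arrays of a genotype lay close together and far from the other genotype, at 55.2 ± 1.24 (SD, n = 3) and 94.9 ± 2.66 (SD, n = 3). Tfdp1 rose 1.72-fold, by 0.78 on the log2 scale (standard error 0.09, 95% interval 0.58 to 0.99, limma adjusted p = 0.00428). It was the only member gene that passed the test in all 6 fits that left out an array, with log2 fold changes of 0.77 to 0.81.

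By brightest probe set, E2f8 showed the largest fold change of the family. This repressor is itself induced by E2F in dividing cells. Its brightest probe set had intensities of 11.3, 7.35 and 7.35 in Arid1a f/f and of 18.2, 37.6 and 21.4 in Arid1a d/d. Replicate 1 stood highest among the Arid1a f/f arrays and replicate 2 among the Arid1a d/d arrays, and the groups did not overlap. E2f8 rose 2.89-fold, by 1.53 on the log2 scale (standard error 0.27, 95% interval 0.91 to 2.14, limma adjusted p = 0.0188). The call was lost without replicate 2 of Arid1a f/f (1.43, limma adjusted p = 0.0850) and without replicate 3 of Arid1a f/f (1.43, limma adjusted p = 0.0790). A second probe set of E2f8 was dim at 1.67 to 2.27 over the 6 arrays and had a log2 fold change of -0.14 (limma, adjusted p = 0.637). The mean of both gave 0.69 (limma, adjusted p = 0.0498), below the 0.78 of Tfdp1 and the 0.75 of E2f7.

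E2f7, which works together with E2f8, had intensities of 8.34, 5.23 and 6.54 in Arid1a f/f and of 9.29, 11.6 and 12.6 in Arid1a d/d. The groups did not overlap, but replicate 1 of Arid1a f/f came near to replicate 1 of Arid1a d/d. The log2 fold change of 0.75 (standard error 0.18, 95% interval 0.34 to 1.16) missed the threshold (limma, adjusted p = 0.0536). Without replicate 1 of Arid1a f/f it was 0.92 and passed (limma, adjusted p = 0.0410).

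E2f6, the Polycomb-linked repressor, had intensities of 24.8, 24.5 and 29.5 in Arid1a f/f and of 36.8, 38.3 and 38.2 in Arid1a d/d. The Arid1a d/d arrays lay close together above all Arid1a f/f arrays. E2f6 rose 1.44-fold, by 0.53 on the log2 scale (standard error 0.11, 95% interval 0.29 to 0.77, limma adjusted p = 0.0293). The call held in 1 of the 6 fits that left out an array, that without replicate 3 of Arid1a f/f, with log2 fold changes of 0.48 to 0.61 over these fits. The second E2f6 probe set, with overlapping values of 6.83 to 7.60 in Arid1a f/f and 6.66 to 9.18 in Arid1a d/d, had a log2 fold change of 0.08 (95% interval -0.22 to 0.38), so the rise rests on 1 probe set. With the mean of both, E2f6 had a log2 fold change of 0.30 (limma, adjusted p = 0.120).

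The pocket proteins did not move together. Rbl1, which encodes p107 and is known to be made mainly in cycling cells, had intensities of 22.4, 14.8 and 18.2 in Arid1a f/f and of 29.8, 32.0 and 30.9 in Arid1a d/d. Replicate 1 was the highest Arid1a f/f array, and the groups did not overlap. Rbl1 rose 1.70-fold, by 0.76 on the log2 scale (standard error 0.15, 95% interval 0.42 to 1.10, limma adjusted p = 0.0262). The call held in 1 of the 6 fits that left out an array, that without replicate 1 of Arid1a f/f, with log2 fold changes of 0.61 to 0.91 over these fits. The other 3 Rbl1 probe sets were dim or near the median intensity and had log2 fold changes of 0.07 to 0.32, and the mean of all 4 gave 0.31 (limma, adjusted p = 0.0790).

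Rb1, the retinoblastoma gene, had intensities of 20.3, 19.2 and 19.1 in Arid1a f/f and of 19.0, 16.9 and 15.9 in Arid1a d/d. Every Arid1a d/d value was lower, the closest by a small margin, and the log2 fold change of -0.18 (95% interval -0.42 to 0.05, limma adjusted p = 0.409) did not pass the test. The dim second probe set of Rb1 had a log2 fold change of 0.11.

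Rbl2 encodes p130, the pocket protein known from resting cells. Its brightest probe set had intensities of 28.5, 26.6 and 33.6 in Arid1a f/f and of 28.8, 16.8 and 26.6 in Arid1a d/d. Only replicate 2 of Arid1a d/d lay below the Arid1a f/f range, and the log2 fold change of -0.33 (95% interval -0.77 to 0.12, limma adjusted p = 0.451) was -0.08 without that array. The second Rbl2 probe set gave -0.32 (95% interval -0.61 to -0.03, limma adjusted p = 0.227).

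**Figure D2:**
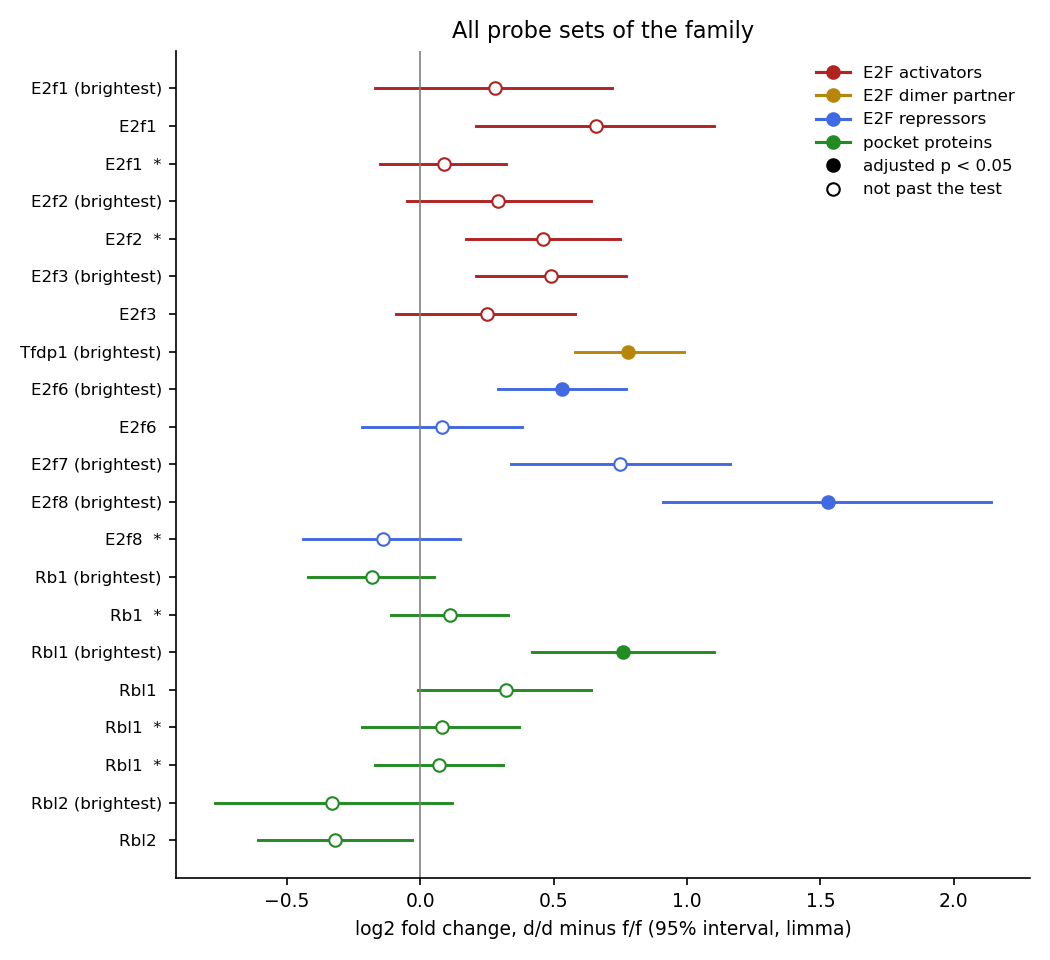
Log2 fold change (Arid1a d/d minus Arid1a f/f) of all 21 probe sets of the family with the 95% interval from limma, where filled points passed the test and an asterisk marks a dim probe set. The intervals of the E2f6 probe sets, 0.29 to 0.77 and -0.22 to 0.38, show that probe sets of a gene did not all move alike.

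By role, 0 of 3 activators (limma, and 1 at an unadjusted p under 0.05), the 1 dimer partner, 2 of 3 E2F repressors and 1 of 3 pocket proteins were called higher. The median log2 fold change was 0.29 for the activators, 0.75 for the E2F repressors and -0.18 for the pocket proteins. The repressive members as a whole, repressors and pocket proteins, had 3 of 6 called and a median of 0.64. By probe set the order of the medians was reversed, at 0.08 for their 13 probe sets and 0.29 for the 7 of the activators. Of these, 9 of the 13 and all 7 had positive values, while 3 of the 13 and 0 of the 7 were called higher. The difference between the roles was not tested, and the intervals of E2f3 and of the second E2f1 probe set reach the size of the rise of E2f6. All Arid1a d/d arrays lay above all Arid1a f/f arrays for 7 of the 21 probe sets and below them for 1, against 11.0% and 11.5% of all probe sets.

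The 3 E2F and DP genes outside the set were not called. E2f4, which encodes a repressive E2F of resting cells, was dim on these arrays at 2.77 to 3.09 and had a log2 fold change of -0.08. The brightest probe set of E2f5 had intensities of 24.8, 27.2 and 31.4 in Arid1a f/f and of 35.2, 33.3 and 35.1 in Arid1a d/d, without overlap (log2 fold change 0.32, limma adjusted p = 0.163). Tfdp2, the other DP partner, ran the opposite way to Tfdp1 in value, at 55.2, 51.1 and 66.0 in Arid1a f/f and 48.3, 31.7 and 45.0 in Arid1a d/d. Its log2 fold change of -0.48 (95% interval -0.87 to -0.09) missed the threshold (limma, adjusted p = 0.172), and those of its other 3 probe sets were -0.30 to -0.05.

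Most of the measured genes that E2F factors are known to control rose. Of 50 listed E2F target genes 47 were measured, and 34 were called higher, 0 lower and 13 not called, with positive values for 46 of them and a median log2 fold change of 0.91. Over all genes, limma called 3.37% higher and 4.06% lower. The target list was drawn up when earlier results of these data were known, so its counts are not an independent test. Some of its genes, such as Hells, Pcna and Tk1, are already reported by the paper as up-regulated on these arrays. Values of the 4 largest targets show their range. Hells, a chromatin remodeler needed for DNA methylation, had intensities of 19.9, 10.6 and 11.4 in Arid1a f/f and of 39.7, 73.6 and 50.3 in Arid1a d/d (log2 fold change 1.98, limma adjusted p = 0.00846). Uhrf1, which brings the maintenance methyltransferase to new DNA, had a log2 fold change of 1.88 (limma, adjusted p = 0.0115). Ccne2, the cyclin E2 gene, had intensities of 6.22, 3.33 and 5.35 in Arid1a f/f and of 14.0, 14.6 and 16.4 in Arid1a d/d (log2 fold change 1.64, limma adjusted p = 0.00595). Cdc6, which loads the replicative helicase, had a log2 fold change of 1.59 (limma, adjusted p = 0.0102). Apaf1, a gene of the apoptosome, was the only target with a negative value (-0.17, limma adjusted p = 0.533). The number called was 8 without replicate 2 of Arid1a f/f, 13 without replicate 3 of Arid1a f/f, and 20 without replicate 2 or without replicate 3 of Arid1a d/d, while the median stayed between 0.80 and 1.06 in all 6 such fits.

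Mitotic genes, which the MuvB complex and FOXM1 drive later in the cycle, had 8 of 19 called higher and 0 lower, with a median of 0.83. The largest were the spindle motor Kif11 (1.23), the checkpoint kinase Bub1 (1.18), the survivin gene Birc5 (1.14) and Cdca8 (1.13). The number called was 13 without replicate 1 of Arid1a f/f and 0 to 2 without replicate 2 or 3 of Arid1a f/f or replicate 2 or 3 of Arid1a d/d. Mki67, the gene of the Ki67 antigen, had intensities of 155, 83.9 and 98.0 in Arid1a f/f and of 151, 151 and 181 in Arid1a d/d. Replicate 1 of Arid1a f/f overlapped with the Arid1a d/d arrays, and the log2 fold change of 0.56 did not pass the test (limma, adjusted p = 0.187).

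The enzymes that act on pocket proteins gave 2 calls among 9 cyclins and kinases, both higher, with a median of 0.63. They were Ccne2, which is also in the target list, and Ccnd2. Ccnd2, the cyclin D2 gene whose kinase partner phosphorylates RB1, had intensities of 74.9, 67.2 and 64.9 in Arid1a f/f and of 152, 152 and 142 in Arid1a d/d (log2 fold change 1.11, standard error 0.10, limma adjusted p = 0.00183). Both calls held in all 6 fits that left out an array. Of 7 CDK inhibitors, Cdkn1c, the p57 gene, fell by 0.63 on the log2 scale (limma, adjusted p = 0.0331) and the others were not called. That call held in 1 of the 6 fits that left out an array, that without replicate 1 of Arid1a d/d.

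Of 9 measured genes for the turnover of E2F and pocket proteins, 3 were called higher and 0 lower, with a median of 0.42. They were Cks1b (0.95, limma adjusted p = 0.0128) and Skp2 (0.94, limma adjusted p = 0.0402), which act in the same ubiquitin ligase, and Ccnf (0.67, limma adjusted p = 0.0129), known for the degradation of E2F proteins. The Skp2 call was lost in each of the 6 fits that left out an array, and those of Cks1b and Ccnf without replicate 2 or 3 of Arid1a f/f, when 0 genes of the list were called.

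Components of the repressor complexes gave 2 calls in all. Among 8 DREAM and MuvB genes, Lin54, the DNA-binding subunit of MuvB, was called higher (0.90, limma adjusted p = 0.0167) and the median was 0.16. The Lin54 call was lost without replicate 1 or 3 of Arid1a f/f and without replicate 2 or 3 of Arid1a d/d. Among 9 genes of the E2F6 complex, Pcgf6, a Polycomb ring finger gene, was called higher (0.54, limma adjusted p = 0.0363), and the median was 0.11. It was called in 1 of the 6 fits that left out an array, that without replicate 1 of Arid1a d/d. None of 9 corepressors that pocket proteins recruit was called by limma. After adjustment the methods' t-test called none either, but it called 0 probe sets on the whole array and so says nothing about them. At an unadjusted p under 0.05, limma and the methods' t-test each gave 2 higher and 0 lower. Of all genes, limma gave 11.4% higher and 13.5% lower, and the methods' t-test 9.51% and 10.6%. The genes were Hdac1 and Sin3b by limma, and Hdac2 and Sin3b by the methods' t-test. The largest values were those of Hdac1 (0.35, limma adjusted p = 0.220) and Sin3b (0.24, limma adjusted p = 0.227).

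**Figure D3:**
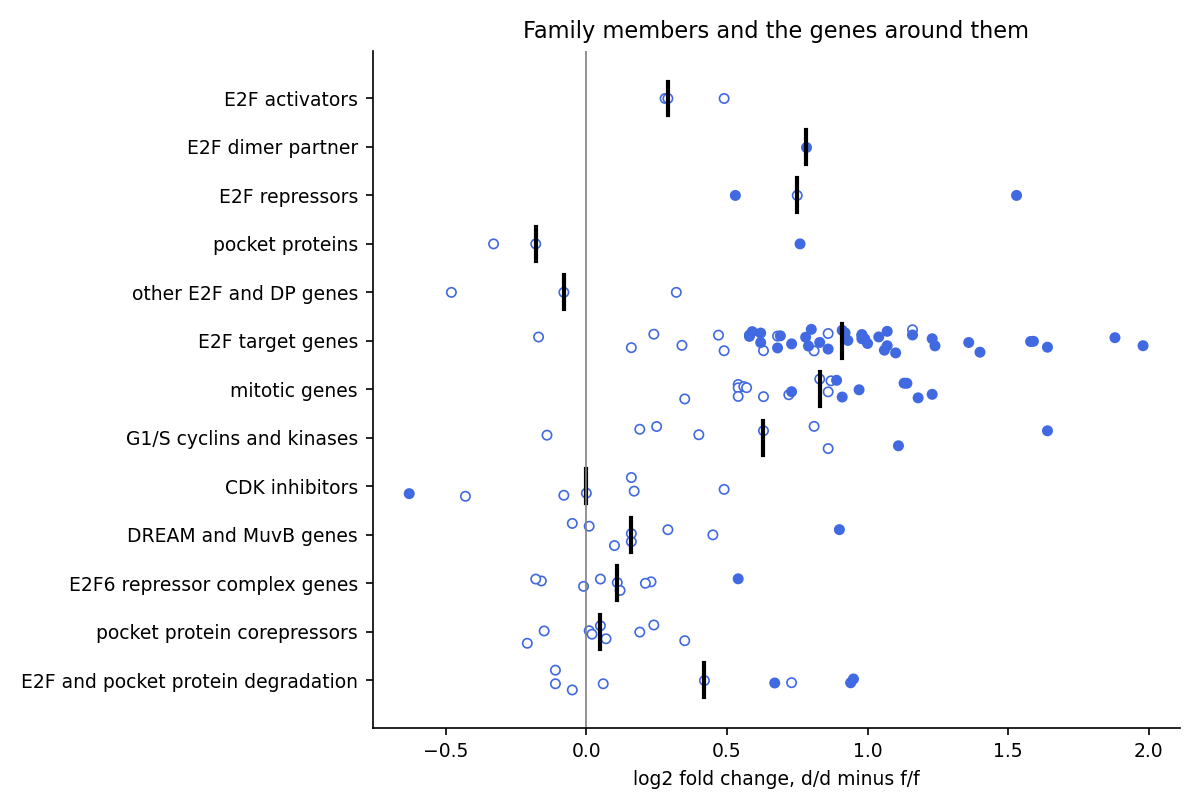
Log2 fold change (Arid1a d/d minus Arid1a f/f) of each measured gene by list, where filled points passed the test and the black line is the median of the list. The E2F targets (median 0.91) and mitotic genes (median 0.83) lie to the right, while the corepressors (median 0.05) and E2F6 complex genes (median 0.11) lie around 0.

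Members differed in their values on single arrays, above all on replicate 1 of Arid1a f/f. Values are given here as log2 intensity minus the mean of the Arid1a f/f arrays. The median of the E2F targets was 0.29, -0.20 and -0.13 on replicates 1 to 3 of Arid1a f/f, and 0.69, 1.07 and 0.94 on those of Arid1a d/d. Replicate 1 was the highest Arid1a f/f array for 39 of the 47 targets, or 83.0%, and for all 19 mitotic genes, against 34.4% of all genes. E2f8 (0.41), E2f7 (0.34), Rbl1 (0.30) and the second E2f1 probe set (0.44) were highest of the Arid1a f/f arrays on that array too. Tfdp1 (0.04), E2f2 (0.05) and Rb1 (0.06) were highest there as well, though near the mean. E2f3 (-0.05) and E2f6 (-0.08) also lay near the mean there. By brightest probe set, 6 of the 10 members were highest on that array, against 34.4% of all genes. The brightest E2f1 probe set was highest on replicate 2 instead, at 0.18, 0.27 and -0.45 on replicates 1 to 3. Every Arid1a d/d array lay above every Arid1a f/f array for 43 of the 47 targets, against 2438 of all 18193 genes. For 46 targets every Arid1a d/d array lay above replicates 2 and 3 of Arid1a f/f, a looser rule that can only raise the count. That rule leaves out the high array, and its share over all genes was not counted.

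**Figure D4:**
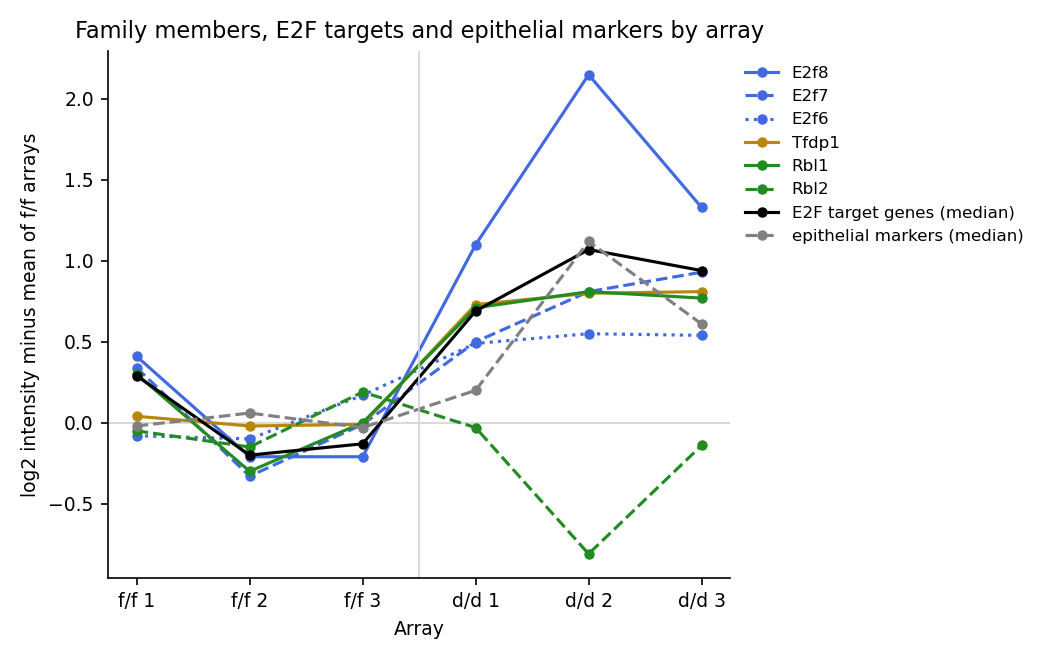
Log2 intensity minus the mean of the Arid1a f/f arrays for 6 members, with the medians of the E2F targets and of the epithelial markers on the 6 arrays. The lines join values of 1 gene or list and imply no order of the replicates. Replicate 1 of Arid1a f/f is raised for E2f8, E2f7, Rbl1 and the targets but lies near the mean for Tfdp1 and E2f6. Rbl2 is low on replicate 2 of Arid1a d/d.

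Marker levels of several cell types differed between the arrays. In RNA of whole tissue, fewer cells of a type and less RNA per cell cannot be told apart. Of 13 epithelial markers, 2 were called higher and 0 lower (median log2 fold change 0.77). The summed intensity of the list was 1380 to 1400 in Arid1a f/f and 1340, 2610 and 1800 in Arid1a d/d. Of 12 endothelial markers, 10 were called lower, with sums of 571 to 595 in Arid1a f/f and 257 to 310 in Arid1a d/d. Of 12 stromal markers, 2 were called lower, with sums of 10800 to 12000 and 8410 to 10000. Immune markers had 2 of 10 lower and smooth muscle markers 1 of 12 lower. Of 8 embryo markers, 7 had a mean over the 6 arrays under the median intensity, with Pou5f1, Nanog and Cdx2 among them, and none was called by limma (2 lower at an unadjusted p under 0.05). Replicate 2 of Arid1a d/d, with the highest epithelial sum, had the highest E2f8 and E2f3 and the lowest Rbl2. By brightest probe set it was the highest Arid1a d/d array for 5 of 10 members, against 32.9% of all genes. Replicate 3 was highest for 3 members, which were Tfdp1, E2f7 and E2f2, and replicate 1 for 2. On replicate 1 of Arid1a d/d the summaries of the epithelial list disagreed, with a sum below the Arid1a f/f range but a median of 0.20 above the Arid1a f/f mean, where the Arid1a f/f arrays had -0.03 to 0.06. That array had Tfdp1 at 0.73, E2f8 at 1.10, Rbl1 at 0.71 and E2f6 at 0.49. With 1 array left out, the number of endothelial markers called lower was 5 to 8, that of epithelial markers called higher 0 to 3, and those of stromal, immune and smooth muscle markers called lower 0 to 2. The part of the cell mixture in the values of the family was not tested.

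The genes whose profiles over the 6 arrays were most like those of the called members were found by the root mean square distance of centred log2 values. For Tfdp1 they were Mrps22 (0.056), Cct6a (0.0621) and Umps (0.067), where Tfdp1 itself spread by 0.392 about its mean. For E2f6, with its spread of 0.278, they were Ppat (0.0354), Bag2 (0.04) and Dbr1 (0.0421). For E2f8 they were Cdc6 (0.0791), Psat1 (0.146) and Tfrc (0.152), against a spread of 0.853. For Rbl1 they were Alcam (0.0377), Dnmt1 (0.0429) and Rab20 (0.0677), against a spread of 0.42. Of these genes, Cdc6 and Dnmt1 are in the E2F target list. These distances describe 6 arrays in 2 groups, and any gene with a like genotype difference comes close by this measure.

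The promoter words were set beside the calls. The words of 8 bases were in the windows of Tfdp1, Rbl1, E2f2, E2f3 and E2f7, of which Tfdp1 and Rbl1 were called. The windows of E2f8, E2f6, E2f1 and Rbl2 held none. The words without their leading T were in 6 of 9 members, with E2f8 added, against 9.57% of all windows and 10.9% of genes, and that of E2f8 overlaps a CCAAT box on the opposite strand. Among the targets with a window, 20 of 40 held a word of 8 bases. Over all measured genes with a window, 63 of 550 with such a word were called higher, or 11.5%, and 427 of 13902 without it, or 3.07%. Within the target list the shares were 15 of 20 with the word and 13 of 20 without it. The CHR word TTTGAA, known from genes that DREAM and MuvB bind, was in the windows of E2f2, E2f3, E2f8 and Rbl2 (4 of 9 members, against 20.2% of genes), and the CCAAT box in those of E2f2, E2f3, E2f7 and E2f8 (4 of 9 members, against 41.1% of genes). A match of letters does not show that a factor binds there, and a window without a match may still be bound.

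**Figure D5:**
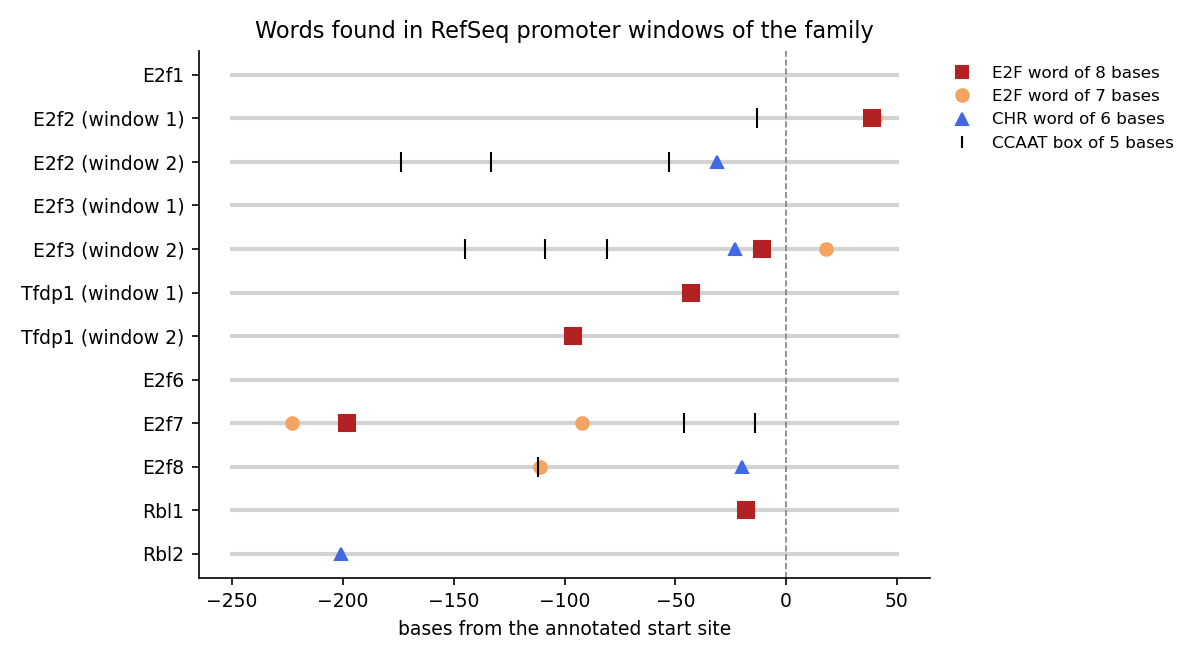
Words found in the 12 RefSeq promoter windows of 9 members, by their distance in bases from the annotated start site (dashed line), with symbols for the kinds of word. The E2F words of 8 bases of Rbl1 and E2f3 lie 18 and 11 bases before the start, and the windows of E2f1 and E2f6 hold none of the words.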

How the data were processed

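Total RNA from uteri was hybridised to Affymetrix mouse arrays, 1 array per sample. By the methods, the authors obtained the deposited intensity of each probe set by RMA with global scaling; the sources name no version. The trimmed mean of the table, 16.4 to 17.1 per array, is not the target that the methods give, and how it was rescaled is unknown. The intensity values were linear (1.29 to 4479), and log2 was taken here. Median array intensities were 3.05 to 3.17, and the number of arrays limits the precision. No array pair held identical values. Gene names came from the platform annotation, in which 34945 probe sets name 1 gene, 932 several and 9160 none. The test was two-sided, by lmFit and eBayes of limma 3.58.1 (R 4.3.3), with Benjamini-Hochberg adjustment over 45037 probe sets and no filter on dim ones. The fit was tested on simulated data. The members and gene lists were chosen with earlier results of these data known. Named genes were all members, the other E2F and DP genes, up to 4 called genes per pathway list (2 where none was called), the 3 closest profiles of each called member, and Mki67; Apaf1 was added after its value was seen. Alternatives were a replicate block, quantile normalization, median centring, a filter on dim probe sets, the methods' t-test, eBayes with trend and robust options, leaving out probe sets that may detect several transcripts, the mean of probe sets per gene, and leaving out each array. Promoter sequences were those of RefSeq (GRCm38.p6).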

Additional observations from a re-analysis of the deposited data

How the results depend on the processing

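With a Benjamini-Hochberg adjustment added here, the methods' t-test called 0 probe sets higher and 0 lower, hence 0 members and 0 E2F targets. This test gave Arid1a -0.76 at an adjusted p of 0.153. Without adjustment it gave 7 of the 21 member probe sets higher and 0 lower, against 7.52% and 7.36% of all probe sets. With each array left out in turn, which leaves fewer samples, the member genes called higher numbered 1 to 4, the E2F targets 8 to 34, and all probe sets 241 to 941 higher and 337 to 878 lower. The fewest came without replicate 2 of Arid1a f/f, when Tfdp1 was the 1 member called. The median log2 fold change was then 0.21 to 0.47 for the activators, highest without replicate 1 of Arid1a d/d, and -0.26 to -0.08 for the pocket proteins. The mean of all probe sets per gene gave 2 members called higher and a pocket protein median of -0.04. E2f7 crossed the threshold under median centring (adjusted p = 0.0447, limma), without dim probe sets (0.0463) and with trend and robust options (0.0455). No brightest probe set of a member changed sign, but 2 dimmer ones did with an array left out, the second of E2f6 (0.08, range -0.06 to 0.18) and one of Rbl1 (0.08, range -0.05 to 0.15). The labels do not say whether same-numbered samples belong together. Deviations of same-numbered samples correlated at -0.00364, 0.0467 and 0.143, and those of the other pairs at -0.119 to 0.0649. With so few arrays these values cannot settle whether samples were paired. With the replicate block 4 member genes were called higher, 28 E2F targets, and 1126 probe sets higher and 1039 lower. Quantile normalization and median centring each moved the median log2 fold change of all probe sets from -0.008 to -0.001. A value held when direction and call stayed, a count stayed within 1.5 times, or a role median moved by less than its SD among arrays. This was so for 110 values of the main comparisons and 505 of single genes and lists, while 27 and 86 moved. Calls were lost in 1 and 18, and gained in 5 of single genes and lists. Counts of 0 that stayed at 0, such as members and E2F targets called lower, are among the values that held. The cause of the changes was not tested. The number of arrays and dim probe sets limit what can be seen.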
